A study of Drosophila melanogaster with 24 samples.

Results

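Arginine deprivation was the diet on which flies without the amino acid sensor GCN2 and their controls were compared directly. The libraries were chosen by their labels: the 3 libraries of GCN2 null females on food deprived of arginine (Gcn2 -R) and the 3 libraries of wDah females on the same food (wDah -R), 6 of the 24 libraries in the series. In the mutant the whole open reading frame of Gcn2 had been exchanged for a white marker gene by homologous recombination, so that the mutants carry this marker and the controls do not. The allele is a single engineered line that had been backcrossed into wDah, the control stock. Newly emerged females had been left to mate once on fresh food and were then kept for 3 days on Yaa, a chemically defined food with an amino acid profile based on yeast, or on the same food from which arginine (-R), methionine (-M) or every amino acid (-All) had been left out. Each library was made from polyA RNA of heads and thoraces pooled from 25 flies. The 6 libraries hold totals of 21993971, 23331219 and 23360066 normalised counts in Gcn2 -R and 24750885, 24536050 and 24470569 in wDah -R.

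GCN2 is a kinase that is switched on when uncharged transfer RNAs accumulate, as they do when an amino acid runs short. It phosphorylates the initiation factor eIF2alpha, which slows general translation and favours translation of the transcription factor ATF4, encoded in flies by cryptocephal (crc). ATF4 in turn raises genes for amino acid synthesis, transport and tRNA charging, and in flies the translational repressor Thor (4E-BP). Arginine cannot be made by flies and must be eaten.

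Gcn2 itself lies on the right arm of chromosome 3 at 3R:31395660-31402013 (positions are from Ensembl gene models on BDGP6.54). The primers that bounded the homology arms of the knockout construct are shown because they bound the flanking sequence through which the reading frame was replaced. They are written 5′ to 3′, with the added restriction site in capitals.
SOL310 (5′ arm, NotI): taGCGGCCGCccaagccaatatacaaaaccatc
SOL311 (5′ arm, KpnI): taGGTACCttcggatttcccaccggg
SOL312 (3′ arm, SpeI): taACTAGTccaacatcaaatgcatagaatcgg
SOL313 (3′ arm, AscI): taGGCGCGCCggttggaggagtggcttttc

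The transcript counts assigned to Gcn2 were 106, 136 and 132 normalised counts in Gcn2 mutants, against 701, 686 and 693 in wDah controls. Every mutant library lay far below every control library on this diet, as the labels say, although the counts were not at 0. The mutant mean was 125 ± 16.1 and the control mean 693 ± 7.29 normalised counts (SD, n = 3 each), so that 18.0% of the control level remained. The 2-sided exact permutation test gave p = 0.1, the smallest value that 3 against 3 libraries allow, and the limma fit across all features gave a log2 difference of -2.47 (adjusted p = 2.84e-05). PNPase, which encodes a polynucleotide phosphorylase and overlaps the end of Gcn2 on the opposite strand at 3R:31401560-31405452, had 472, 361 and 356 normalised counts in Gcn2 mutants, against 282, 239 and 249 in wDah controls (log2 difference 0.62 ± 0.14 SE, adjusted p = 0.0127). Whether the counting used strand is not given in the sources used here, so reads of these overlapping genes cannot be told apart. By Northern blot the study found no Gcn2 RNA in this mutant and PNPase unaffected, a measurement separate from these libraries. On the other diets Gcn2 stood at mean levels of 158 normalised counts in Gcn2 mutants and 651 in wDah controls on Yaa. The means were 132 in Gcn2 mutants and 663 in wDah controls on -M, and 149 in Gcn2 mutants and 612 in wDah controls on -All.

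One library stood apart. Gcn2 -R replicate 1 correlated at 0.933 and 0.934 with the other mutant libraries over log2 values, whereas these correlated at 0.987 with each other, and the wDah -R libraries correlated at 0.983 to 0.984. The 14 ovary markers in the table summed to 7530, 807 and 869.9 in Gcn2 mutants, against 1063, 1009 and 958 in wDah controls. The excess sat in replicate 1, where oskar, a germ plasm gene, reached 3179 normalised counts with far less in the other mutant libraries. The 23 neuron markers, among them synaptic proteins and acetylcholine receptor subunits, summed to 29202, 70013 and 75685 in Gcn2 mutants, against 104381, 104269 and 102783 in wDah controls. The 13 oenocyte markers summed to 27293, 6819 and 8002 in Gcn2 mutants, against 3533, 7201 and 2438 in wDah controls. Of the neuron markers 0 were higher and 5 lower of 23, and without replicate 1 there were 21 lower, with 8 without Gcn2 -R replicate 3 and 1, 0 and 2 without wDah -R replicate 1, 2 or 3. The 23 photoreceptor markers summed to 309254, 288161 and 321296 in Gcn2 mutants, against 462541, 489789 and 461378 in wDah controls, and 17 of them were lower and 0 higher (22 and 0 without replicate 1). Over all features tested, 27.7% were higher and 18.2% lower at an adjusted p under 0.05 (limma), and 33.5% and 28.9% without replicate 1. The neuron count of 5 of 23 with all 6 libraries was near that share. No marker of these lists was at 0 in all libraries of either genotype. In pooled tissue, fewer cells of a type and less RNA per cell cannot be told apart. The list counts below are therefore also given without this library.

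**Figure D1:**
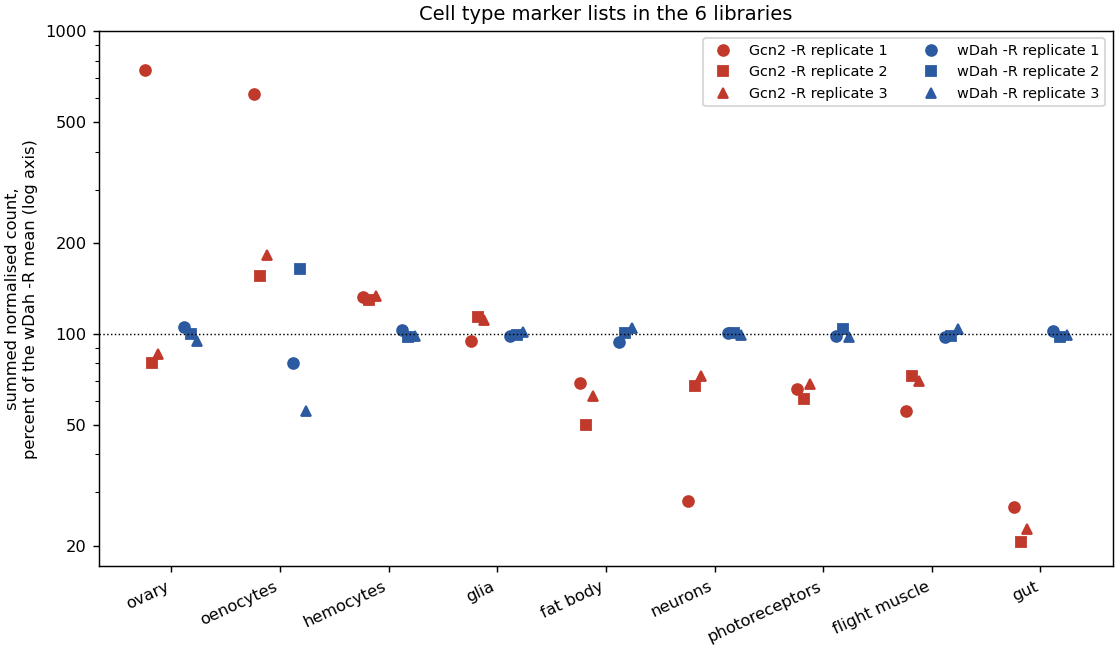
Summed normalised counts of the cell type marker lists in each library, as a percentage of the wDah -R mean of that list (vertical log axis); red symbols are Gcn2 -R and blue symbols wDah -R, with 1 symbol shape per replicate. Ovary markers stand at 746% in Gcn2 -R replicate 1 and at 79.9% and 86.1% in the other mutant libraries, and gut markers at 20.5% to 26.9% in all 3.

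Without arginine, a large share of the measured transcripts differed by genotype. Of 10940 features with a mean of at least 10 normalised counts over the 6 libraries, 3027 were higher (27.7%) and 1987 lower (18.2%) in Gcn2 mutants at an adjusted p under 0.05 (limma on log2 of the normalised count plus 1, Benjamini-Hochberg adjustment over all features). Differences of 2-fold or more made up 1086 of the higher and 340 of the lower features. Without Gcn2 -R replicate 1, 3639 of 10871 features were higher (33.5%) and 3146 lower (28.9%), and 4975 features were called in both fits, all 4975 in the same direction. The count of lower features was 1050, 1044 and 1041 without wDah -R replicate 1, 2 or 3. Among 540 transposable element copies tested, 37 were higher and 69 lower. The shares of 27.7% and 18.2% are the background for every list count above and below. Without Gcn2 -R replicate 1 that background is 33.5% and 28.9%.

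The genes furthest above control level in mutants ranged widely in abundance. Obp99b, a member of the odorant-binding protein family that carries small hydrophobic molecules, had 11677, 13832 and 10892 normalised counts in Gcn2 mutants, against 50.9, 22.4 and 69.1 in wDah controls (log2 difference 8.10 ± 0.39 SE, adjusted p = 3.15e-05). It was the gene with the widest gap between the lowest mutant and the highest control library among those with a mean of at least 100 normalised counts. Arc1 encodes a Gag-like protein of retrotransposon origin that forms capsids around its own messenger RNA and carries it between cells. It had 471533, 431168 and 394793 normalised counts in Gcn2 mutants, against 5768, 7269 and 9759 in wDah controls (log2 difference 5.86 ± 0.19 SE, adjusted p = 1.18e-05). In the mutants this single gene held 2.14%, 1.85% and 1.69% of all normalised counts, against 0.0233%, 0.0296% and 0.0399% in controls. Per transcript length (the authors' FPKM), Arc1 stood at 9026, 8254 and 7557 FPKM in Gcn2 mutants, against 110.4, 139 and 187 FPKM in wDah controls. By mean FPKM it ranked 9 among all features in mutants and 675 in controls. Its neighbour and paralogue Arc2 (2R:14361924-14362825, next to Arc1 at 2R:14357927-14360297) had 3769, 3929 and 3571 normalised counts in Gcn2 mutants, against 66.0, 104 and 88.99 in wDah controls (log2 difference 5.45 ± 0.17 SE, adjusted p = 9.24e-06). Reads shared by these related genes could have been split between them by the counting, so their separate levels are uncertain.

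**Figure D2:**
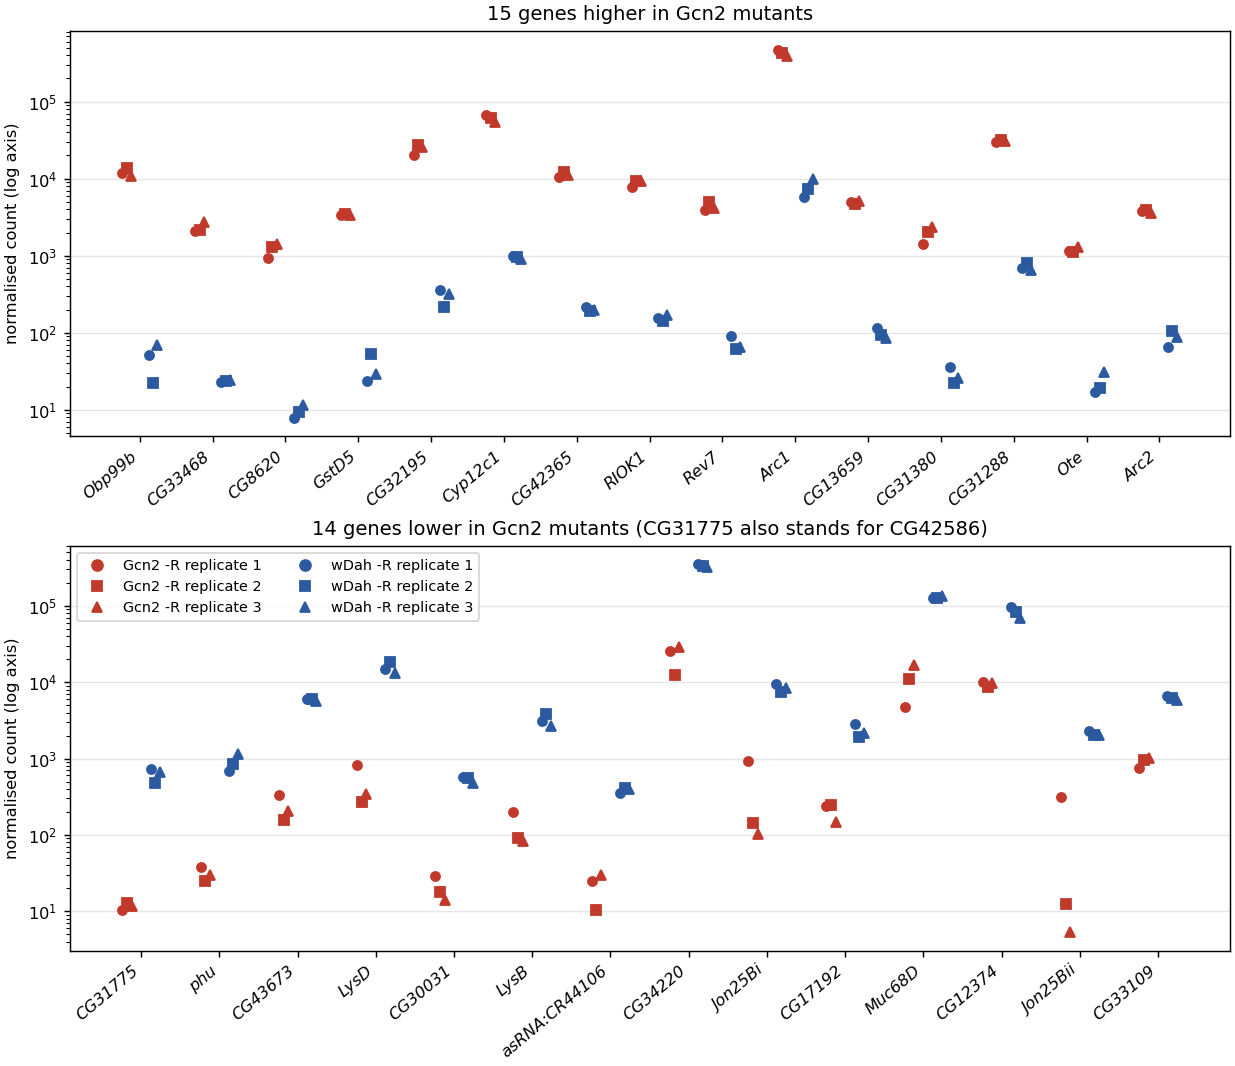
Normalised counts (vertical log axis) of the genes with the widest gaps between the genotypes, higher in the upper panel and lower in the lower panel; red symbols are the 3 Gcn2 -R libraries and blue symbols the 3 wDah -R libraries. No gene shown has overlapping groups, which the choice by gap fixed, and Arc1 reaches 471533 normalised counts in a mutant library.

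RIOK1 and eIF6, which act in the last steps of ribosomal subunit maturation, were part of this pattern. RIOK1, an atypical kinase of the small subunit, had 7687, 9354 and 9416 normalised counts in Gcn2 mutants, against 157, 142 and 168 in wDah controls (log2 difference 5.81 ± 0.11 SE, adjusted p = 2.01e-06). eIF6, which keeps the large subunit from joining too early, had 11446, 8905 and 9206 normalised counts in Gcn2 mutants, against 367, 389 and 371 in wDah controls (log2 difference 4.70 ± 0.11 SE, adjusted p = 3.51e-06). Every mutant library lay far above every control library for both. Rev7, a subunit of translesion DNA polymerase zeta, had 3930, 4961 and 4184 normalised counts in Gcn2 mutants, against 90.9, 61.5 and 64.9 in wDah controls (log2 difference 5.91 ± 0.17 SE, adjusted p = 7.45e-06). Ote, which encodes the nuclear envelope protein Otefin, had 1158, 1120 and 1315 normalised counts in Gcn2 mutants, against 17.3, 19.0 and 31.4 in wDah controls (log2 difference 5.71 ± 0.23 SE, adjusted p = 1.86e-05).

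Detoxification genes were also among those with the widest gaps. The cytochrome P450 gene Cyp12c1 had 66898, 60603 and 54954 normalised counts in Gcn2 mutants, against 1006, 951 and 895 in wDah controls (log2 difference 5.99 ± 0.10 SE, adjusted p = 1.42e-06). GstD5, a glutathione S-transferase that joins glutathione to reactive compounds, had 3342, 3473 and 3333 normalised counts in Gcn2 mutants, against 23.8, 53.7 and 29.3 in wDah controls (log2 difference 6.61 ± 0.28 SE, adjusted p = 2.28e-05). The remaining genes in the group of 15 with the widest gaps have no role given here. CG33468 had 2077, 2175 and 2722 normalised counts in Gcn2 mutants, against 22.7, 23.5 and 24.1 in wDah controls. CG8620 had 933, 1315 and 1418 in Gcn2 mutants, against 7.89, 9.32 and 11.6 in wDah controls. CG32195 reached 20408, 27169 and 25504 in Gcn2 mutants, against 355, 217 and 321 in wDah controls. All mutant libraries of these stood far above the controls. CG42365 reached 10571, 12094 and 11050 in Gcn2 mutants, against 219, 190.2 and 199 in wDah controls. CG31380 had 1409, 2060 and 2329 in Gcn2 mutants, against 35.7, 22.4 and 26.2 in wDah controls. CG31288, the most abundant of the unnamed genes, had 30329, 31993 and 30520 in Gcn2 mutants, against 699, 809 and 644 in wDah controls. CG13659, its neighbour, had 5050, 4704 and 5145 in Gcn2 mutants, against 116, 95.1 and 84.8 in wDah controls. Their log2 differences ranged between 5.44 and 6.84, with adjusted p-values of at most 1.94e-05.

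Several of these genes are neighbours on the chromosome. CG31288 and CG13659 adjoin each other at 3R:25297960-25299557 and 3R:25300891-25302317. CG11893, nearby, had 16049, 20174 and 20432 in Gcn2 mutants, against 538, 346 and 263 in wDah controls. Of 15 genes in this run 9 were higher and 2 lower, these 3 included. CG31097, which adjoins CG31288, had 94.4, 122 and 100.5 in Gcn2 mutants, against 20.6, 14.5 and 13.6 in wDah controls (log2 difference 2.64, adjusted p = 0.000273). The other 5 higher genes, CG31300, CG13658, CG31370, CG31098 and CG31436, had log2 differences of 1.07, 1.001, 0.92, 0.68 and 0.33. The lower genes were CG11892 and CG10550, with log2 differences of -1.13 and -0.55 (adjusted p = 0.0310 and 0.0217). CG31102 and CG31104 were among the 4 that did not pass the test (log2 differences -0.07 and 0.18). On 2R, CG42365 follows CG42364, which had 223, 513 and 442 in Gcn2 mutants, against 6.49, 6.71 and 3.14 in wDah controls, and CG42362 and CG42363, which share 1 locus and had identical values in every library. Of 14 features in that run 6 were higher and 6 lower. Among the lower ones, PIG-M, CG42379, CG42380 and CG42381 share 1 locus. PIG-M, CG42379 and CG42380 had identical values in every -R library, so they count as 1 measurement. These neighbours were looked up after the values of the leading genes were seen.

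The genes furthest below control level in mutants included secreted digestive proteins. LysD and LysB, digestive lysozymes that break bacterial cell walls, were among them. LysD had 824, 272 and 345 normalised counts in Gcn2 mutants, against 14942, 18531 and 13316 in wDah controls (log2 difference -5.18 ± 0.40 SE, adjusted p = 0.000201). LysB had 197, 90.8 and 83.7 in Gcn2 mutants, against 3056, 3815 and 2679 in wDah controls (log2 difference -4.77 ± 0.34 SE, adjusted p = 0.000138). Reads shared by these related genes could have been split between them, so their separate levels are uncertain. Jon25Bi, a digestive serine protease, had 921, 144 and 102 normalised counts in Gcn2 mutants, against 9582, 7437 and 8424 in wDah controls (log2 difference -5.14 ± 0.78 SE, adjusted p = 0.00286). Its neighbour in the same family, Jon25Bii, had 317, 12.5 and 5.29 in Gcn2 mutants, against 2312, 2015 and 2062 in wDah controls (log2 difference -6.15 ± 1.38 SE, adjusted p = 0.0126). In both, replicate 1 stood highest among the mutant libraries, and without that library the adjusted p-values were 3.00e-07 and 1.17e-06. Muc68D, a mucin of the gut lining, had 4661, 10971 and 16761 normalised counts in Gcn2 mutants, against 127314, 127447 and 132615 in wDah controls (log2 difference -3.76 ± 0.44 SE, adjusted p = 0.000907). CG34220 was among the most abundant of the lower genes, with 25382, 12474 and 29230 normalised counts in Gcn2 mutants, against 350004, 331997 and 326620 in wDah controls (log2 difference -4.001 ± 0.31 SE, adjusted p = 0.000194).

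The other leading lower genes were CG31775 and CG42586, phu, CG43673, CG30031, asRNA:CR44106, CG17192, CG12374 and CG33109. CG31775 and CG42586 had identical values and count as 1 measurement: 10.5, 12.9 and 11.7 in Gcn2 mutants, against 738, 481 and 657 in wDah controls. phu had 38.1, 24.9 and 30.0 in Gcn2 mutants, against 682, 836 and 1156 in wDah controls. CG43673 had 337, 158 and 205 in Gcn2 mutants, against 6046, 6029 and 5674 in wDah controls. CG30031 had 28.6, 17.8 and 14.1 in Gcn2 mutants, against 568, 560.4 and 472 in wDah controls. CG17192, from the list of lipases, had 236, 246 and 148 in Gcn2 mutants, against 2862, 1932 and 2188 in wDah controls. CG12374 was more abundant, with 9967, 8575 and 9648 in Gcn2 mutants, against 96292, 82775 and 68539 in wDah controls. CG33109 had 741, 953 and 1015 in Gcn2 mutants, against 6531, 6222 and 5898 in wDah controls. The antisense transcript CR44106 had 25.3, 10.4 and 30.3 in Gcn2 mutants, against 352, 409 and 403 in wDah controls, and without knowledge of strand its reads cannot be told from those of a partner gene. Their log2 differences lay between -5.61 and -2.79, with adjusted p-values of at most 0.000326. None of the 30 leading genes had overlapping groups, which the choice by gap fixed. Among all 10940 features tested, groups were also without overlap for 3723 features higher and 3394 lower in mutants.

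Ribosome biogenesis genes, whose products process ribosomal RNA and assemble the subunits in the nucleolus, were higher as a group. Of 45 members tested, 42 were higher and 0 lower, against 27.7% and 18.2% of all features, and the median log2 difference was 1.77, against -0.001 over all features. Fibrillarin (Fib), the methyltransferase of box C/D particles that modify ribosomal RNA, had 2041, 1266 and 1158 normalised counts in Gcn2 mutants, against 182, 220.4 and 181 in wDah controls (log2 difference 2.89 ± 0.22 SE, adjusted p = 0.000194). Its partner nop5 had 3365, 2600 and 2244 in Gcn2 mutants, against 378, 397 and 382 in wDah controls (log2 difference 2.80 ± 0.15 SE, adjusted p = 4.60e-05). Nop56, of the same particles, had 2868, 1961 and 1731 in Gcn2 mutants, against 329, 370.2 and 303 in wDah controls (log2 difference 2.68 ± 0.20 SE, adjusted p = 0.000156). The 3 members that did not pass the test, Nop17l, Non1 and Hlc, had log2 differences of -0.21, -0.10 and 0.13. Without Gcn2 -R replicate 1, 42 members were higher and 1 lower, and without any of the other 5 libraries 41 or 42 were higher.

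Other parts of protein synthesis moved less. Of 33 aminoacyl-tRNA synthetases, the enzymes that charge transfer RNAs with amino acids, 27 were higher and 0 lower (median log2 difference 0.64), and 29 were higher without Gcn2 -R replicate 1. ArgRS, which charges arginine, had 969.9, 1106 and 1034 normalised counts in Gcn2 mutants, against 528, 523 and 513 in wDah controls (log2 difference 0.99 ± 0.08 SE, adjusted p = 0.000198). SerRS had 2939, 2505 and 2188 in Gcn2 mutants, against 802, 869 and 808 in wDah controls (log2 difference 1.61 ± 0.12 SE, adjusted p = 0.000155). Of 73 mitochondrial ribosomal protein genes, 45 were higher and 0 lower, and 46 higher and 2 lower without Gcn2 -R replicate 1, with mRpL32 at a log2 difference of 1.37. Cytoplasmic ribosomal protein genes were nearer the background, with 29 higher and 6 lower of 86 and a median of 0.21, and the count of higher members was 14, 15 and 14 without wDah -R replicate 1, 2 or 3. Without Gcn2 -R replicate 1, 37 of these were higher and 19 lower. RpS27 had 15673, 14230 and 14359 normalised counts in Gcn2 mutants, against 6574, 7153 and 6518 in wDah controls (log2 difference 1.13 ± 0.08 SE, adjusted p = 0.000116). Of 32 proteasome subunits, which form the main protease of the cytosol and nucleus, 25 were higher and 0 lower (median 0.66), with 26 higher without Gcn2 -R replicate 1 and 17 without wDah -R replicate 1. On -M, 29 of 32 were also higher and 0 lower in mutants, against 1329 and 1188 of 10906 features. The -R difference was above the mean of the other diets for 19 subunits and below it for 0 (limma, adjusted p under 0.05).

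**Figure D3:**
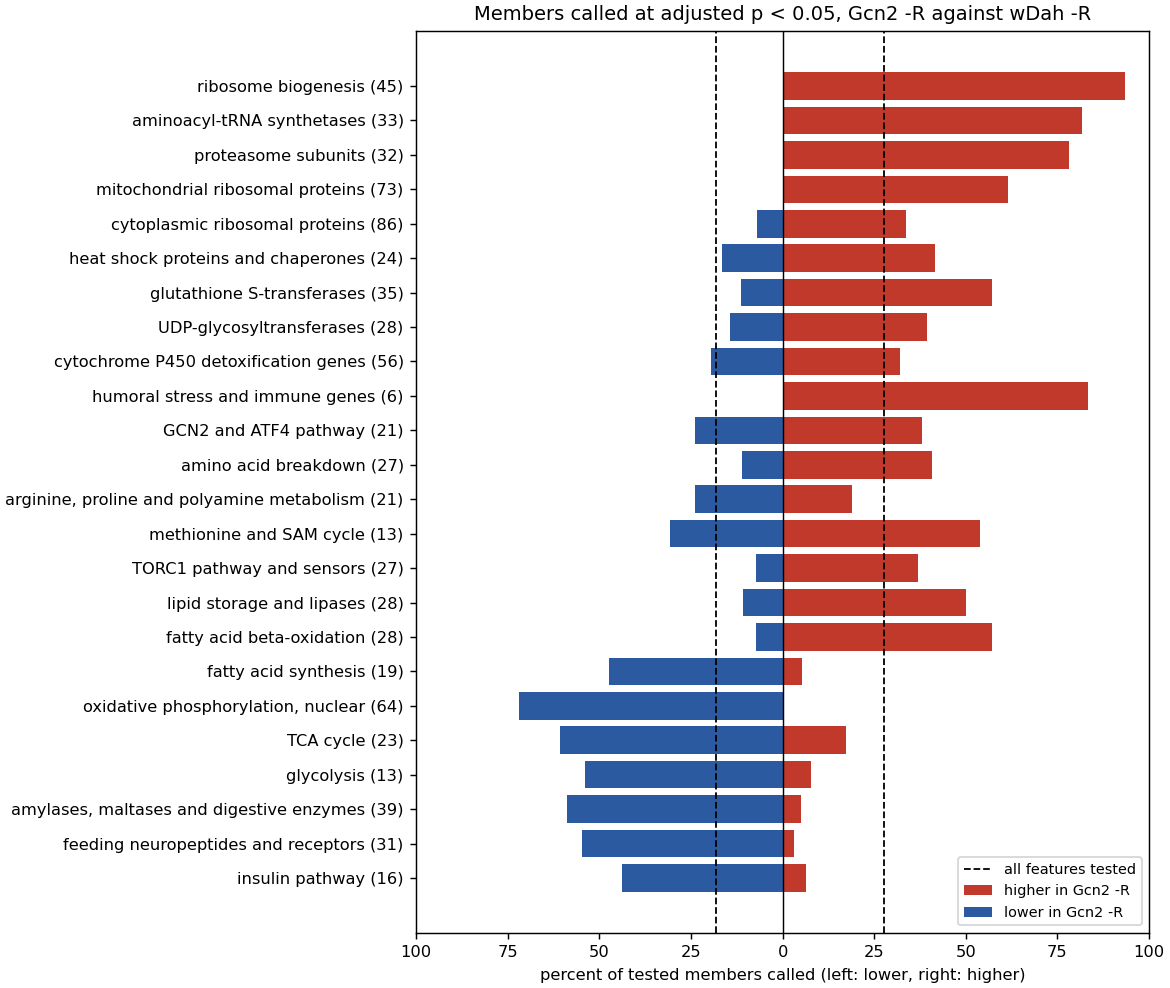
Percentage of tested members of each gene list that were lower (blue, to the left) or higher (red, to the right) in Gcn2 -R than in wDah -R at an adjusted p under 0.05; the number tested is in brackets and dashed lines mark 18.2% and 27.7%, the shares over all features. Ribosome biogenesis has 42 of 45 members higher, and oxidative phosphorylation 46 of 64 lower.

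Several chaperones were higher. Of 24 heat shock and chaperone genes, 10 were higher and 4 lower, with 12 higher and 4 lower without Gcn2 -R replicate 1, 9 and 2 without wDah -R replicate 2, and 12 and 2 without wDah -R replicate 3. Hsc70-3, the fly BiP that folds proteins in the endoplasmic reticulum, had 29259, 42456 and 38852 normalised counts in Gcn2 mutants, against 8853, 8796 and 7543 in wDah controls (log2 difference 2.12 ± 0.15 SE, adjusted p = 0.000150). Gp93, the chaperone of the same compartment related to Hsp90, had 9999, 11718 and 11225 normalised counts in Gcn2 mutants, against 3306, 3275 and 2700 in wDah controls (log2 difference 1.83 ± 0.11 SE, adjusted p = 6.89e-05). The small heat shock protein Hsp23 had 1033, 1605 and 832 normalised counts in Gcn2 mutants, against 68.8, 78.0 and 80.7 in wDah controls (log2 difference 3.86 ± 0.24 SE, adjusted p = 7.80e-05). Hsp83 had 20138, 21423 and 21252 in Gcn2 mutants, against 5429, 6442 and 5551 in wDah controls (log2 difference 1.85 ± 0.09 SE, adjusted p = 3.10e-05). Hsp68 and Hsp67Bc were among the lower members, with log2 differences of -1.16 and -0.76.

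The GCN2 and ATF4 pathway list did not move one way. Apart from Gcn2, 8 of its members were higher and 4 lower of 20 tested, against 27.7% and 18.2% of all features, and 8 did not pass the test. The list with Gcn2 counted 9 higher and 8 lower without Gcn2 -R replicate 1, 7 and 3 without wDah -R replicate 1 or 2, and 6 and 3 without wDah -R replicate 3. crc, which encodes ATF4, had 21310, 23904 and 24001 normalised counts in Gcn2 mutants, against 21490, 21562 and 21935 in wDah controls (log2 difference 0.09 ± 0.08 SE, adjusted p = 0.364). AsnS, the asparagine synthetase that ATF4 induces in mammals, had 3066, 2669 and 2461 normalised counts in Gcn2 mutants, against 2608, 1553 and 1841 in wDah controls (log2 difference 0.48 ± 0.20 SE, adjusted p = 0.0905), with overlapping groups. Thor, the eIF4E-binding translational repressor, was lower in mutants, with 3974, 8690 and 7949 normalised counts in Gcn2 mutants, against 13937, 12528 and 13802 in wDah controls (log2 difference -1.04 ± 0.29 SE, adjusted p = 0.0275). Its lowest value was in replicate 1, the difference was -0.69 without that library (adjusted p = 0.000104), and the call was lost without any 1 of the wDah -R libraries (adjusted p = 0.0717 to 0.0857). Nmdmc, a mitochondrial folate enzyme, was also lower, with 1859, 1641 and 1184 normalised counts in Gcn2 mutants, against 4447, 3190 and 4159 in wDah controls (log2 difference -1.34 ± 0.20 SE, adjusted p = 0.00264). So was aay, the phosphatase of the last step of serine synthesis, with 4121, 4380 and 3358 in Gcn2 mutants, against 8583, 7533 and 9856 in wDah controls (log2 difference -1.13 ± 0.14 SE, adjusted p = 0.00120). Sesn, the stress-induced regulator of TORC1 Sestrin, had 2650, 3341 and 3218 in Gcn2 mutants, against 3800, 3998 and 4148 in wDah controls (log2 difference -0.38 ± 0.10 SE, adjusted p = 0.0260) and lost its call without wDah -R replicate 1, 2 or 3 (adjusted p = 0.0621 to 0.0958).

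The higher members of this list included other arms of the stress response. trbl (tribbles), a pseudokinase, had 3081, 3505 and 2753 normalised counts in Gcn2 mutants, against 635, 692 and 671 in wDah controls (log2 difference 2.22 ± 0.10 SE, adjusted p = 2.97e-05). eIF2alpha, the substrate of GCN2, had 3551, 3377 and 2929 normalised counts in Gcn2 mutants, against 1331, 1413 and 1401 in wDah controls (log2 difference 1.25 ± 0.09 SE, adjusted p = 0.000154). PEK, the eIF2alpha kinase of the endoplasmic reticulum, had 1832, 2235 and 2482 in Gcn2 mutants, against 1175, 1122 and 1168 in wDah controls (log2 difference 0.91 ± 0.12 SE, adjusted p = 0.00154). Irbp18 and Xrp1 encode bZIP transcription factors that pair with each other. Irbp18 had 977, 1186 and 1094 normalised counts in Gcn2 mutants, against 531, 570.5 and 578 in wDah controls (log2 difference 0.95 ± 0.09 SE, adjusted p = 0.000495). Xrp1 had 21870, 42499 and 39959 in Gcn2 mutants, against 16977, 17648 and 18163 in wDah controls (log2 difference 0.92 ± 0.25 SE, adjusted p = 0.0252). Xrp1 stood lower in replicate 1 than in the other mutant libraries, its adjusted p was 3.10e-06 without replicate 1, and it was 0.0658 to 0.0809 without any 1 of the other 5 libraries. Gadd45 was higher as well (log2 difference 0.81 ± 0.08 SE, adjusted p = 0.000436), as was Xbp1 (log2 difference 0.29 ± 0.06 SE, adjusted p = 0.0121), whose adjusted p was 0.0564 and 0.0584 without wDah -R replicate 1 or 3. scyl and chrb, which restrain TORC1, had log2 differences of -0.90 and -0.85 with all libraries (adjusted p = 0.120 and 0.0952). Without Gcn2 -R replicate 1 their differences were -0.38 and -0.41 and passed the test (adjusted p = 0.000941 and 0.000336). PPP1R15, the subunit that directs eIF2alpha dephosphorylation, and crc also passed it there, at -0.16 and 0.15 (adjusted p = 0.0347 and 0.0243). Atf3, P5cr and P5cr-2 did not pass the test (log2 difference -0.67 ± 0.53 SE, adjusted p = 0.321, log2 difference 0.14 ± 0.12 SE, adjusted p = 0.389, and log2 difference 0.10 ± 0.10 SE, adjusted p = 0.405). AsnS had an adjusted p of 0.0189 without wDah -R replicate 1.

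**Figure D4:**
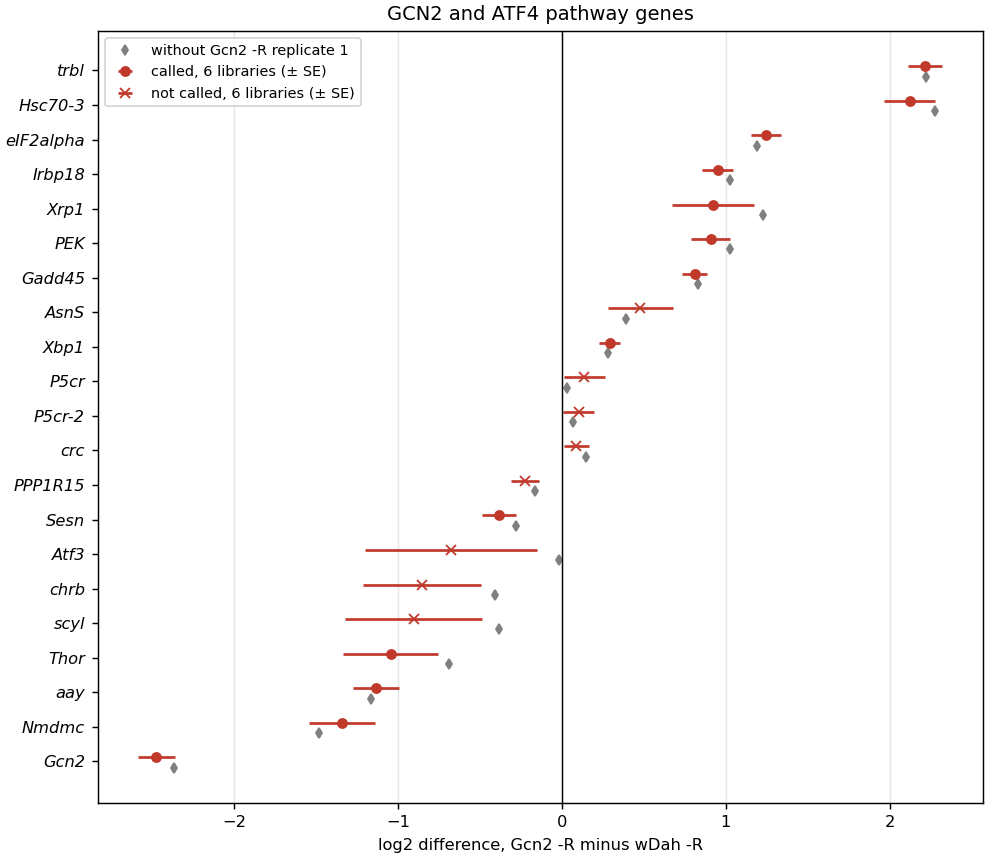
Log2 difference of Gcn2 -R minus wDah -R for the 21 GCN2 and ATF4 pathway genes; circles passed the test and crosses did not in the fit of all 6 libraries (bars are ± 1 SE), and grey diamonds are the values without Gcn2 -R replicate 1. trbl has the largest positive value, at 2.22, and Gcn2 the largest negative value, at -2.47.

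Of 21 genes of arginine, proline and polyamine metabolism, 4 were higher and 5 lower, near the 27.7% and 18.2% of all features, and rescaling each library to the same total turned this into 6 higher and 2 lower. The list counted 6 higher and 8 lower without Gcn2 -R replicate 1, 2 and 2 without wDah -R replicate 1, and 2 and 1 without wDah -R replicate 2 or 3. arg, which encodes arginase, had 526, 423 and 379 normalised counts in Gcn2 mutants, against 275, 289 and 202 in wDah controls (log2 difference 0.80 ± 0.18 SE, adjusted p = 0.0136). Argl, argininosuccinate lyase, had 3023, 1860 and 2094 in Gcn2 mutants, against 869.8, 1035 and 903 in wDah controls (log2 difference 1.28 ± 0.19 SE, adjusted p = 0.00236). Oda, the antizyme that restrains polyamine synthesis, had 33948, 39975 and 38526 in Gcn2 mutants, against 54568, 54549 and 56918 in wDah controls (log2 difference -0.57 ± 0.09 SE, adjusted p = 0.00294). Nos, nitric oxide synthase, had 227, 269 and 297 in Gcn2 mutants, against 354, 401 and 357 in wDah controls (log2 difference -0.49 ± 0.12 SE, adjusted p = 0.0181). Nos missed the threshold without any 1 wDah -R library (adjusted p = 0.0510 to 0.0710).

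Several genes that break down methionine and its products were higher in mutants. Gnmt, glycine N-methyltransferase, which disposes of S-adenosylmethionine, had 493, 267 and 794 normalised counts in Gcn2 mutants, against 11.9, 15.7 and 64.9 in wDah controls (log2 difference 4.29 ± 0.69 SE, adjusted p = 0.00352). Sardh, which oxidises the sarcosine that Gnmt makes, had 1837, 1194 and 1146 normalised counts in Gcn2 mutants, against 352, 328 and 314 in wDah controls (log2 difference 2.04 ± 0.19 SE, adjusted p = 0.000368). Cbs, the entry enzyme of transsulfuration, had 1965, 1468 and 1425 in Gcn2 mutants, against 519, 439 and 496 in wDah controls (log2 difference 1.73 ± 0.14 SE, adjusted p = 0.000259). Eip55E, cystathionine gamma-lyase, had 2149, 2076 and 1820 in Gcn2 mutants, against 801, 817 and 769 in wDah controls (log2 difference 1.34 ± 0.09 SE, adjusted p = 9.42e-05). In the methionine list as a whole 7 of 13 genes were higher and 4 lower, against 27.7% and 18.2% of all features. The 4 lower members had log2 differences between -1.08 and -0.22. Without Gcn2 -R replicate 1 the list counted 7 higher and 5 lower. These were 7 and 2 without Gcn2 -R replicate 3, and 6 and 2 without wDah -R replicate 1, 2 or 3. Among 27 genes of amino acid breakdown 11 were higher and 3 lower, with 14 higher and 4 lower without Gcn2 -R replicate 1, 6 and 1 without wDah -R replicate 1, and 7 and 2 without wDah -R replicate 3. Hn, phenylalanine hydroxylase, was one of the lower ones, with 6309, 5327 and 5584 in Gcn2 mutants, against 12165, 11930 and 13043 in wDah controls (log2 difference -1.11 ± 0.09 SE, adjusted p = 0.000212).

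Genes of fatty acid synthesis were more often lower, and genes of fatty acid breakdown more often higher. FASN1, the fatty acid synthase of the fat body, had 16084, 13060 and 16009 normalised counts in Gcn2 mutants, against 67740, 67856 and 75037 in wDah controls (log2 difference -2.23 ± 0.11 SE, adjusted p = 3.22e-05). Desat1, the main acyl desaturase, had 37884, 28113 and 32160 normalised counts in Gcn2 mutants, against 80723, 82407 and 92547 in wDah controls (log2 difference -1.39 ± 0.13 SE, adjusted p = 0.000365). AcCoAS, acetyl-CoA synthase, had 10712, 8491 and 9619 in Gcn2 mutants, against 20952, 21807 and 22314 in wDah controls (log2 difference -1.18 ± 0.10 SE, adjusted p = 0.000270). In the list of 19 fatty acid synthesis genes 9 were lower and 1 higher, with 3 higher and 11 lower without Gcn2 -R replicate 1, and 0 and 9 without Gcn2 -R replicate 3 or wDah -R replicate 1 or 3. Of 28 genes of fatty acid beta-oxidation, 16 were higher and 2 lower (median 0.53), with 18 higher and 6 lower without Gcn2 -R replicate 1. Mtpalpha, a subunit of the mitochondrial trifunctional enzyme, had 13700, 13459 and 11139 normalised counts in Gcn2 mutants, against 3678, 3764 and 3694 in wDah controls (log2 difference 1.78 ± 0.10 SE, adjusted p = 4.77e-05). yip2, a 3-ketoacyl-CoA thiolase, had 27761, 26017 and 24300 in Gcn2 mutants, against 4335, 4880 and 4420 in wDah controls (log2 difference 2.52 ± 0.08 SE, adjusted p = 1.21e-05). Among 28 lipid storage and lipase genes 14 were higher and 3 lower, and 15 higher and 4 lower without Gcn2 -R replicate 1. Dgat2, which makes triglyceride, had 428, 795 and 729.6 normalised counts in Gcn2 mutants, against 21.6, 31.3 and 14.7 in wDah controls (log2 difference 4.80 ± 0.34 SE, adjusted p = 0.000135), and the lipid droplet protein Jabba had 9658, 14378 and 12496 in Gcn2 mutants, against 3769, 3878 and 4111 in wDah controls (log2 difference 1.62 ± 0.15 SE, adjusted p = 0.000363).

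Of 15 lipoprotein genes and receptors 4 were higher and 7 lower, with 4 higher and 9 lower without Gcn2 -R replicate 1. apolpp, the precursor of the main haemolymph lipoprotein, had 82474, 129745 and 154153 normalised counts in Gcn2 mutants, against 316497, 289530 and 307372 in wDah controls (log2 difference -1.36 ± 0.23 SE, adjusted p = 0.00406). Apoltp, the lipid transfer particle that loads it, had 63302, 96476 and 80368 in Gcn2 mutants, against 9399, 8965 and 8799 in wDah controls (log2 difference 3.12 ± 0.15 SE, adjusted p = 3.53e-05). The yolk proteins were lower, with 173671, 100663 and 134123 in Gcn2 mutants, against 247191, 282972 and 307701 in wDah controls for Yp3 (log2 difference -1.07 ± 0.21 SE, adjusted p = 0.00746). Yp1 and Yp2 had log2 differences of -0.64 and -0.84 (adjusted p = 0.0423 and 0.0248). Yp1 lost the call after rescaling to the same total (adjusted p = 0.0911) and without any 1 library other than Gcn2 -R replicate 1 (adjusted p = 0.07 to 0.119). Yp2 lost it without Gcn2 -R replicate 3 or any 1 wDah -R library (adjusted p = 0.0575 to 0.0808). The 17 fat body markers, 3 of which are these yolk proteins and make up most of the sum, summed to 1041470, 755775 and 937977 in Gcn2 mutants, against 1422822, 1518487 and 1577852 in wDah controls. Of the 15 tested, 6 were higher and 5 lower (median 0.05), with 6 higher and 7 lower without Gcn2 -R replicate 1, and 4 and 3 without Gcn2 -R replicate 3 or wDah -R replicate 1, 2 or 3. FASN1, apolpp, Apoltp, bmm, Lsd-1, AkhR, Gnmt and Sardh are also among these markers and belong to other lists counted here. The marker count is therefore not a measure of fat body content separate from those lists. The part of fat body content in these lipid results was not tested.

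Genes of mitochondrial energy metabolism were more often lower than higher. Of 64 nuclear genes for oxidative phosphorylation 46 were lower and 0 higher (median -0.31). Rescaling to the same total left 27 lower and 1 higher, and 22 and 30 were lower without wDah -R replicate 1 or 2. Without Gcn2 -R replicate 1, 56 were lower. ATPsynC, a subunit of the membrane rotor of ATP synthase, had 59574, 59844 and 60280 normalised counts in Gcn2 mutants, against 89731, 84151 and 83291 in wDah controls (log2 difference -0.52 ± 0.07 SE, adjusted p = 0.00193). Of 23 TCA cycle genes 14 were lower and 4 higher, with 5 higher and 16 lower without Gcn2 -R replicate 1, 2 and 13 without Gcn2 -R replicate 2 or wDah -R replicate 2 or 3, and 2 and 12 without wDah -R replicate 1. Idh3a, a subunit of the NAD-dependent isocitrate dehydrogenase, had 14353, 16606 and 17088 in Gcn2 mutants, against 28493, 28172 and 29032 in wDah controls (log2 difference -0.84 ± 0.09 SE, adjusted p = 0.000593). Mdh1, the cytosolic malate dehydrogenase, had 19963, 18201 and 16239 in Gcn2 mutants, against 5783, 6162 and 5844 in wDah controls (log2 difference 1.61 ± 0.09 SE, adjusted p = 6.00e-05). In glycolysis 7 of 13 genes were lower and 1 higher, but 3 were lower after rescaling to the same total and 11 without Gcn2 -R replicate 1. Without Gcn2 -R replicate 2 there were 4, and without wDah -R replicate 1, 2 or 3 there were 4, 3 and 3. The 19 flight muscle markers, a tissue rich in these enzymes, summed to 415065, 538462 and 520098 in Gcn2 mutants, against 726132, 729465 and 772583 in wDah controls, and 16 of them were lower (18 without Gcn2 -R replicate 1 and 9 without wDah -R replicate 3). The part of muscle content in the energy results was not tested.

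Of 35 glutathione S-transferases, 20 were higher and 4 lower, and 21 higher and 6 lower without Gcn2 -R replicate 1. In the GstD cluster on 3R 9 of 10 genes were higher, all except GstD11, with log2 differences between 0.96 for GstD1 and 6.61 for GstD5. GstD2 had 2642, 4453 and 3355 in Gcn2 mutants, against 36.8, 129 and 44.0 in wDah controls. GstD10 had 1089, 1551 and 1313 in Gcn2 mutants, against 75.7, 76.5 and 74.7 in wDah controls. GstD1, the most abundant of the cluster, had 22257, 22444 and 22230 in Gcn2 mutants, against 10190, 13188 and 11122 in wDah controls. GstD11 had 10.7, 17.0 and 14.9 in Gcn2 mutants, against 14.6, 21.4 and 11.8 in wDah controls, with overlapping groups, and did not pass the test. Among 28 UDP-glycosyltransferases, which attach sugars to small molecules, 11 were higher and 4 lower, with 11 higher and 6 lower without Gcn2 -R replicate 1, and 10 and 2 without wDah -R replicate 1, 2 or 3. Ugt37A3 had 32321, 31440 and 35883 in Gcn2 mutants, against 2040, 2959 and 983 in wDah controls (log2 difference 4.19 ± 0.38 SE, adjusted p = 0.000338). The P450 genes were near the shares over all features (27.7% and 18.2%), with 18 higher and 11 lower of 56, and 19 higher and 18 lower without Gcn2 -R replicate 1, and 17 and 7 without wDah -R replicate 1, 2 or 3. Cyp6d2 had 11573, 12290 and 11343 in Gcn2 mutants, against 489, 522 and 459 in wDah controls (log2 difference 4.58 ± 0.08 SE, adjusted p = 1.59e-06). Trxr-1, the thioredoxin reductase that stands in for glutathione reductase in flies, had 12654, 12358 and 11786 in Gcn2 mutants, against 4266, 4433 and 4661 in wDah controls (log2 difference 1.46 ± 0.07 SE, adjusted p = 3.13e-05).

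Stress-induced humoral genes were higher. TotA and TotC, small secreted proteins of the fat body that respond to stress and infection, were among them. TotA had 7178, 10084 and 8369 normalised counts in Gcn2 mutants, against 1593, 1342 and 757 in wDah controls (log2 difference 2.85 ± 0.29 SE, adjusted p = 0.000521). TotC had 1946, 2390 and 2144 in Gcn2 mutants, against 519.5, 380.3 and 223 in wDah controls (log2 difference 2.60 ± 0.30 SE, adjusted p = 0.000849). upd3, a cytokine of the JAK/STAT pathway, had 37.2, 54.3 and 62.6 in Gcn2 mutants, against 4.33, 6.71 and 11.5 in wDah controls (log2 difference 2.68 ± 0.41 SE, adjusted p = 0.00293). In this list of 6 genes 5 were higher and 0 lower, with or without Gcn2 -R replicate 1. Of 24 antimicrobial peptides and related genes 7 were higher and 9 lower, against 27.7% and 18.2% of all features. AttC, an attacin, had 907, 1281 and 873 in Gcn2 mutants, against 276, 315 and 297 in wDah controls (log2 difference 1.76 ± 0.16 SE, adjusted p = 0.000347). PGRP-SC2, an amidase that degrades bacterial peptidoglycan, had 401, 50.7 and 132 in Gcn2 mutants, against 881, 1313 and 1156 in wDah controls (log2 difference -2.97 ± 0.69 SE, adjusted p = 0.0147). PGRP-SC2 lost the call without wDah -R replicate 2 or 3 (adjusted p = 0.0561 and 0.0521), and the list counted 7 higher and 10 lower without Gcn2 -R replicate 1, and 7 and 5 without wDah -R replicate 2.

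Digestive enzymes were lower as a list. Of 39 amylases, maltases, trypsins, lysozymes and related enzymes 23 were lower and 2 higher (median -1.39), and 30 were lower and 2 higher without Gcn2 -R replicate 1. betaTry, a trypsin, had 8099, 4861 and 5170 normalised counts in Gcn2 mutants, against 38827, 36519 and 35465 in wDah controls (log2 difference -2.65 ± 0.20 SE, adjusted p = 0.000162). The 22 gut markers, some of them these same enzymes, summed to 105158, 80237 and 88603 in Gcn2 mutants, against 401208, 383756 and 389693 in wDah controls, and 13 of 22 were lower and 3 higher, with 15 lower and 3 higher without Gcn2 -R replicate 1. Their part in the enzyme result was not tested. etaTry and LManI, a lysosomal-type mannosidase, were the higher ones, with log2 differences of 2.08 and 2.18.

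Receptors and peptides of feeding and metabolic hormones were more often lower than higher. Of 31 feeding neuropeptides and receptors 17 were lower and 1 higher, also without Gcn2 -R replicate 1, and 8 were lower without wDah -R replicate 2 or 3 and 11 without wDah -R replicate 1. Dh31-R, a receptor for a diuretic hormone, had 291, 337 and 345 in Gcn2 mutants, against 769.7, 670.0 and 712 in wDah controls (log2 difference -1.14 ± 0.10 SE, adjusted p = 0.000309). AkhR, the receptor for the adipokinetic hormone that mobilises fat, was the higher one, with 2312, 3280 and 2936 in Gcn2 mutants, against 1416, 1367 and 1437 in wDah controls (log2 difference 1.000 ± 0.13 SE, adjusted p = 0.00162). In the insulin pathway list 7 of 16 genes were lower and 1 higher, with 3 higher and 9 lower without Gcn2 -R replicate 1. Ilp2, Ilp3 and Ilp5, insulin-like peptides of brain neurosecretory cells, were all lower. Ilp2 had 288, 334 and 352 in Gcn2 mutants, against 542, 519 and 501 in wDah controls (log2 difference -0.68 ± 0.10 SE, adjusted p = 0.00228). Ilp3 had 114, 97.9 and 121 in Gcn2 mutants, against 254, 225 and 182 in wDah controls (log2 difference -0.98 ± 0.16 SE, adjusted p = 0.00347). Ilp5 had 45.0, 61.4 and 59.0 in Gcn2 mutants, against 122, 95.1 and 90.0 in wDah controls (log2 difference -0.88 ± 0.19 SE, adjusted p = 0.0111). The neuron markers above summed to 67.4% and 72.9% of the control mean in mutant replicates 2 and 3 and to 28.1% in replicate 1, and the photoreceptor markers to 61.2% to 68.2% in all 3. Their part in these results was not tested. Of 11 fat body signal genes 3 were higher, 3 lower and 5 not called, against 27.7% higher and 18.2% lower over all features. Without Gcn2 -R replicate 1, 3 were higher and 4 lower. CCHa2, a nutrient-dependent fat body peptide, had 7166, 6930 and 6196 normalised counts in Gcn2 mutants, against 1707, 1769 and 2045 in wDah controls (log2 difference 1.88 ± 0.10 SE, adjusted p = 4.57e-05). Gbp2, a growth-blocking peptide, had 12511, 12855 and 12211 in Gcn2 mutants, against 6013, 6378 and 6910 in wDah controls (log2 difference 0.96 ± 0.08 SE, adjusted p = 0.000218). fit, a female-specific satiety peptide induced by protein feeding, had 3662, 3390 and 3888 in Gcn2 mutants, against 5899, 9114 and 5540 in wDah controls (log2 difference -0.87 ± 0.19 SE, adjusted p = 0.0121).

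The genotype difference depended on diet. Among the libraries of the other diets, Gcn2 Yaa replicate 2 stood apart, with correlations of 0.934 and 0.937 to the other Gcn2 Yaa libraries and an ovary marker sum of 13082, against 1061 and 1138 in these. In a fit of all 24 libraries, the log2 difference on -R minus the mean of the differences on Yaa, -M and -All passed the test for 2927 features in the higher direction (26.6%) and 2646 in the lower direction (24.1%) of 10994. After rescaling to the same total these were 3436 and 1957, so that the share of calls in the higher direction was 63.7% in place of 52.5%. Without Gcn2 Yaa replicate 2 they were 3357 and 2875 of 10964, an alternative chosen after the data were seen. All 30 leading genes passed this test with or without that library, the 15 higher ones upward and the 15 lower ones downward. This was tested on the same -R libraries that chose them, so that their direction is a description.

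On the other diets the differences of these genes were smaller, absent from the calls or opposite in sign. Arc1 on Yaa had 21803, 16975 and 25359 in Gcn2 mutants and 6213, 4118 and 3930 in wDah controls. On -M it had 36187, 30275 and 29478 in Gcn2 mutants and 4223, 5932 and 7459 in wDah controls. On -All the groups overlapped, with 8737, 15172 and 10379 in Gcn2 mutants and 15730, 5302 and 5239 in wDah controls. GstD5 on Yaa had 41.9, 50.1 and 50.6 in Gcn2 mutants and 12.1, 9.42 and 11.9 in wDah controls. CG31288 on Yaa had 1987, 1782 and 2083 in Gcn2 mutants and 666, 600.3 and 655 in wDah controls. Of the 30 genes 16 were called in the same direction on Yaa (17 without Gcn2 Yaa replicate 2), 6 on -M and 0 on -All. Over all features, in either direction, 296 of 11006 were called on Yaa, and 1288 without that library. On -M 2517 of 10906 features were called, and on -All 117 of 10897. Obp99b turned round on -M, where it had 247, 92.7 and 120.1 in Gcn2 mutants and 566, 886 and 988 in wDah controls (log2 difference -2.49, adjusted p = 0.00172). CG30031, lower in mutants on -R, was higher in mutants on Yaa and -M (log2 differences 3.25 and 3.17, adjusted p = 0.00140 and 0.0136). This gene lies near betaTry on 2R (2R:11350811-11351621), and whether it shares reads with other genes was not tested.

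**Figure D5:**
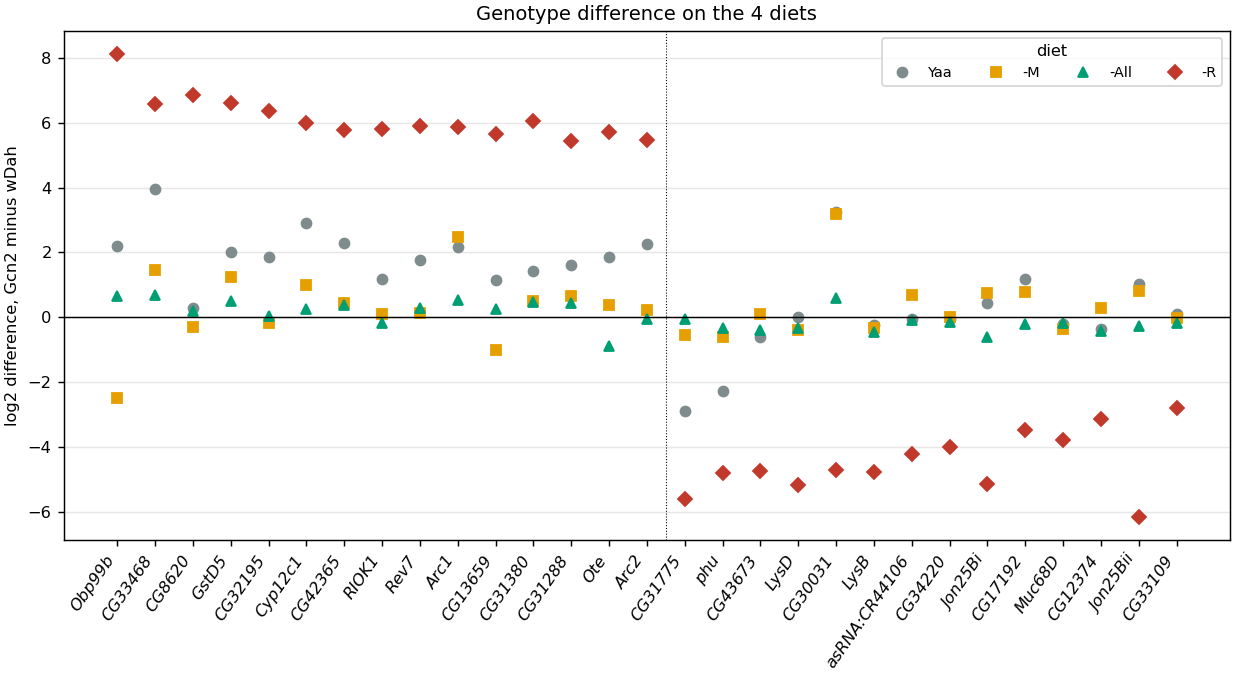
Log2 difference of Gcn2 minus wDah on each diet for the 29 leading genes drawn (CG31775 also stands for CG42586); red diamonds are -R, grey circles Yaa, orange squares -M and green triangles -All. On -R the values run from -6.15 to 8.10, and the difference of CG30031 on Yaa and -M is opposite in sign to that on -R.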

How the data were processed

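RNA was measured in heads and thoraces of Gcn2 mutant and wDah control females on 4 diets, in 24 libraries of 3 replicates a group. Per the labels and the study's methods, the authors mapped reads with kallisto 0.46.2 to BDGP6 transcripts and divided the estimated counts by DESeq2 1.24.0 size factors over all 24 libraries in R 3.6.3. The deposited signal columns used here are these normalised counts, from which whole reads could not be recovered, so depth and counting error are unknown beyond the totals printed. The deposited FPKM columns were used only to compare levels between genes. The authors' own fold change and p-value columns were not used. The table holds 12126 features, of which 869 are transposable element features, and 0 sample columns were left unmapped.

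Features with a mean of at least 10 normalised counts over the 6 -R libraries were tested in limma 3.58.1 (R 4.3.3) on log2(normalised count + 1), with an intensity trend in the variance and Benjamini-Hochberg adjustment over all features, and called at an adjusted p under 0.05. Differences are on the log2(value + 1) scale, which understates the change of low genes. The diet dependence was fitted over all 24 libraries as the -R difference minus the mean of the other 3. The procedure was tested on simulated data in which both groups had the spread of wDah -R. In the real libraries the median SD on the log2 scale was 0.200 in Gcn2 -R and 0.0861 in wDah -R. The simulation does not cover this unequal spread. Tables were joined with pandas 2.3.3 under Python 3.11.15, and matplotlib 3.10.9 made the figures.

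The members and gene lists were chosen with earlier results of these data known, the odorant-binding list was written after values were seen, and 1187 of 1277 matched list entries were in the table. Named genes were Gcn2, its neighbour PNPase, the 15 higher and 15 lower called genes of mean at least 100 with the largest gap between groups, up to 5 called members per list by gap, and all GCN2 and ATF4 list members. GstD1, GstD11 and the chromosomal neighbours, the list members Nop17l, Non1, Hlc, Hsp68, Hsp67Bc, etaTry and LManI, and MsrA were named after their values were seen. The white marker gene and a second neighbour of Gcn2 were not analysed here. The study's methods call the 3 libraries of a group biological replicates, and p-values measure the spread between these libraries. Alternatives were another scaling, pseudocount, filter, array weights, an ovary marker score as a covariate, a fit of all 24 libraries, a replicate block and leaving out each -R library. Leaving out Gcn2 Yaa replicate 2 was added after the data were seen.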

Additional observations from a re-analysis of the deposited data

Results flagged for a closer look

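The genotype difference without arginine differed from the mean difference on the other 3 diets for each of the following genes, tested by the interaction term of limma over 24 libraries with Benjamini-Hochberg adjustment. Values are the log2 difference on -R minus that mean. The leading genes were chosen by their gap on the same -R libraries, so their values here are a description. Among genes higher in mutants on -R, the value was 7.98 for Obp99b, 4.53 for CG33468, 6.78 for CG8620, 5.37 for GstD5, 5.80 for CG32195 and 4.61 for Cyp12c1. It was 4.75 for CG42365, 5.44 for RIOK1, 5.18 for Rev7, 4.12 for Arc1 and 5.52 for CG13659. It was 5.25 for CG31380, 4.54 for CG31288, 5.26 for Ote and 4.64 for Arc2.

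Among genes lower in mutants on -R, it was -4.45 for CG31775 and CG42586, -3.72 for phu, -4.43 for CG43673, -4.93 for LysD and -7.06 for CG30031. LysB had -4.43, asRNA:CR44106 -4.39, CG34220 -3.95, Jon25Bi -5.33 and CG17192 -4.07. Muc68D had -3.52, CG12374 -2.96, Jon25Bii -6.68 and CG33109 -2.77.

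In the GCN2 and ATF4 list, 14 of 21 genes passed the same test, and all 14 did so in the same direction without Gcn2 Yaa replicate 2. Of the 21, 9 passed upward and 5 downward, against 26.6% and 24.1% of all features. AsnS, chrb, scyl and PPP1R15 are among the 14, although their genotype difference on -R did not pass the test with all 6 libraries. The value was above 0 for trbl (2.12), Hsc70-3 (1.81), Gadd45 (1.41), AsnS (1.30), eIF2alpha (1.23), Irbp18 (1.03), PEK (0.86), Xrp1 (0.79) and Xbp1 (0.33). It was below 0 for chrb (-0.79), scyl (-0.69), Thor (-0.66), Sesn (-0.33) and PPP1R15 (-0.19). AsnS and Gadd45 differed by 0.48 and 0.81 on -R, less than their values here. Their mean difference on the other diets was therefore below 0. On -M, 1 of the 21 genes was higher and 9 lower in mutants, against 1329 and 1188 of 10906 features.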

How the results depend on the processing

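The 30 leading genes were called in the same direction under every setting run, with a largest adjusted p of 0.047. They were chosen as called and widely separated in these same libraries, which favours that outcome, so it is a description. Of 207 named genes other than Gcn2, 179 kept their call under every setting and 28 did not. The count of lower features, 1987, was 3231 with all 24 libraries in 1 fit, 3265 with array weights and 3040 with the ovary score as a covariate, and 1041 to 3146 when 1 library was left out. The count lower by 2-fold or more, 340, was 196 at a mean of at least 100. The count of diet-dependent differences, 5573, was 3487 against Yaa only, and its lower part, 2646, was 1321. Rescaling to the same total shifted the median of all features by 0.10 on the log2 scale and gave 3452 higher and 1494 lower, a share higher of 69.8% in place of 60.4%. The cause of these shifts was not tested. With a replicate block 2587 were higher and 1521 lower, 4108 in all against 5014. Same-numbered libraries correlated at 0.133, 0.0204 and 0.0143 in their deviations from the group means, so the numbers were not taken to pair them. Whether reads limit low features could not be judged, since the values are not counts.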

Other observations

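MsrA, a methionine sulfoxide reductase that repairs oxidised methionine, differed by genotype in opposite directions on 2 diets, and was singled out after its values were seen. Without arginine it had 1932, 2330 and 2432 normalised counts in Gcn2 mutants, against 9435, 10175 and 9256 in wDah controls (log2 difference -2.11 ± 0.10 SE, adjusted p = 3.55e-05, limma). Without methionine it had 9104, 10192 and 10071 in Gcn2 mutants and 1077, 1033 and 1054 in wDah controls (log2 difference 3.21, adjusted p = 6.29e-08, limma). The groups did not overlap on either diet. Without arginine this also held for 3723 features higher and 3394 lower in mutants, of 10940 tested.

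Of 24 odorant-binding protein genes 7 were higher and 7 lower without arginine, against 27.7% and 18.2% of all features, with 8 higher and 9 lower without Gcn2 -R replicate 1, 5 and 4 without wDah -R replicate 1, 7 and 4 without wDah -R replicate 2, and 6 and 3 without wDah -R replicate 3. Obp83cd had 395, 491 and 413 in Gcn2 mutants, against 74.7, 72.7 and 76.4 in wDah controls (log2 difference 2.52 ± 0.11 SE, adjusted p = 2.57e-05). Obp99a had 629, 273 and 346 in Gcn2 mutants, against 1136, 1569 and 1529 in wDah controls (log2 difference -1.84 ± 0.31 SE, adjusted p = 0.00443). In the list of 15 genes of trehalose, glycogen and gluconeogenesis 2 were higher and 6 lower, with 2 higher and 10 lower without Gcn2 -R replicate 1. Tret1-2, a trehalose transporter, had 281, 287 and 310.2 in Gcn2 mutants, against 19.5, 11.2 and 25.1 in wDah controls (log2 difference 3.97 ± 0.28 SE, adjusted p = 0.000140). Gbs-70E, a glycogen-targeting phosphatase subunit, had 3614, 5292 and 5830 in Gcn2 mutants, against 14074, 14513 and 15850 in wDah controls (log2 difference -1.62 ± 0.18 SE, adjusted p = 0.000805). Clock genes are also expressed in photoreceptors, whose 23 markers stood at 61.2% to 68.2% of the control mean with 17 lower, and their part was not tested. Of 12 circadian genes 2 were higher and 4 lower, with 3 higher and 7 lower without Gcn2 -R replicate 1, and 2 and 2 without wDah -R replicate 2 or 3. period (per), which feeds back on its own transcription, had 463, 429 and 478 in Gcn2 mutants, against 925, 971 and 856 in wDah controls (log2 difference -1.005 ± 0.08 SE, adjusted p = 0.000269). cyc, the partner of Clock, had 687, 697 and 649 in Gcn2 mutants, against 417, 489.9 and 418 in wDah controls (log2 difference 0.62 ± 0.09 SE, adjusted p = 0.00257).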
